A study of Mus musculus with 12 samples.

Results

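The enzymes of fatty acid and triglyceride synthesis were compared between sternal cartilage of 6 WT mice and 6 TIMPless mice. The set holds 34 genes chosen for their roles, from the enzymes that supply acetyl-CoA to those that finish a triglyceride, with 3 genes that regulate them. A gene was measured by the probe sets that name it alone, and where there were several the brightest was used, which gave values for 31 of the 34 genes, out of 22180 genes measured in that way. Scd2 shared its probe set with Mir5114 and Acsl3 shared its probe set with Utp14b, and for Acsl1 no probe set was named in the annotation used here. These 3 genes were not analysed.

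TIMPs are the tissue inhibitors of metalloproteases, and the TIMPless mice, called QT (quadruple TIMP knockout) hereafter, lack all 4 of them in every cell of the body. Both genotypes were C57BL/6J, untreated and 4 wk old, and each of the 12 arrays held the cartilage of 1 mouse, dissected from the sternum without the xiphoid process. By the methods of the study, the Timp1 allele carries stop codons and the other Timp alleles have lost part of the gene. All 4 Timp genes were lower in QT mice (log2 change -0.87 for Timp1 and -1.27 to -1.66 for the other genes), and only Timp1 overlapped between the genotypes. The dissected tissue was cartilage by its markers, with a mean log2 value of 10 cartilage genes of 11.62 to 11.97 in WT and 11.33 to 11.74 in QT mice. By Xist and the Y-linked gene Eif2s3y, WT mice 5 and 6 looked male (Eif2s3y 9.06 to 9.20) and the other 10 mice female (3.50 to 3.99). The genotypes were therefore not balanced for sex.

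Fatty acids are built in the cytosol. Citrate leaves the mitochondrion and is cleaved to acetyl-CoA, acetyl-CoA carboxylase turns this into malonyl-CoA, and fatty acid synthase joins the units into palmitate at the expense of NADPH. Elongases and desaturases then shape the chain, and acyltransferases place the chains on a glycerol backbone to make triglyceride, the form in which fat is stored. The pathway is most active in fat, liver and sebaceous glands, and its genes are switched on together by SREBP-1c and, with glucose, by ChREBP, often with the help of NF-Y at CCAAT boxes.

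Promoter sequence was taken from RefSeq (GRCm38.p6) as windows of 300 bases, 250 before and 50 after a transcript start, and 24 of the 31 measured genes had at least 1 window. Elovl3, Scd1, Fads1, Gpd1, Mogat2, Dgat1 and Dgat2 had none. Stretches that end at the base before the start are printed for 6 genes that were lower in QT cartilage, because they hold the letters of a CCAAT box or of an SREBP site. Capitals mark CCAAT or its reverse ATTGG in the first 4, and TCANNCCAC, the letters searched for SREBP, in Acly and Slc25a1. The stretches lie at chr11:120824548-120824657 (minus strand) for Fasn, chr7:97417551-97417660 (minus) for Thrsp, chr2:155517933-155518042 (plus) for Acss2, chr15:84167686-84167815 (plus) for Pnpla3, chr11:100528001-100528170 (minus) for Acly and chr16:17928220-17928279 (minus) for Slc25a1. The Fasn stretch lies inside the annotated span of the gene and the Pnpla3 stretch reaches into that of Pnpla3, since their windows belong to a start inside the span.
Fasn: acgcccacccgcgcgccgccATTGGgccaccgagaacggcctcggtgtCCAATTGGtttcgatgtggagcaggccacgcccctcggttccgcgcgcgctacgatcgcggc
Thrsp: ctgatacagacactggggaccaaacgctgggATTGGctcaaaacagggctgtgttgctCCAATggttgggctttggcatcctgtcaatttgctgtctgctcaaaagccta
Acss2: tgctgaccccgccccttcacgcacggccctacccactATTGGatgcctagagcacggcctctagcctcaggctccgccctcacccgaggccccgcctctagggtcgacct
Pnpla3: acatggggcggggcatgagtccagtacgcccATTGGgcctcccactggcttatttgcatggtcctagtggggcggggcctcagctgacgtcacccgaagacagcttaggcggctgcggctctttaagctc
Acly: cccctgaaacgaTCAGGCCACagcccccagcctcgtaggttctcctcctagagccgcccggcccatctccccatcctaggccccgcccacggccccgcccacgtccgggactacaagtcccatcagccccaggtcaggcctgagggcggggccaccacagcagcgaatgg
Slc25a1: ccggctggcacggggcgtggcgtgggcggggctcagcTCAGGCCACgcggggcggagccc

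In the Fasn stretch the forward and the reverse CCAAT box overlap in 1 run of capitals, and a further reverse box lies upstream of it. Acly and Slc25a1 carry the same 9 letters of the SREBP site, TCAGGCCAC. Both strands were searched, and the 4 motifs were counted per window. The SREBP letters were in 3 of 13 windows of genes that were lower in QT mice (23.1%), in 2 of 19 windows of the other measured genes (10.5%) and in 4.18% of all 32851 windows. The windows with them belong to Acly, Slc25a1 and Mlxipl in the former set. CCAAT was in 8 of the 13 windows (61.5%) and in 9 of the 19 (47.4%), against 37.4% of all windows. The E-box CACGTG was in 2 and 2 windows (7.15% of all) and the GC box GGGCGG in 7 and 9 (35.7% of all). A match is a description of the letters and not a binding site.

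Of the 31 genes, 14 were lower in QT cartilage and 0 were higher, where a gene was called lower or higher at an adjusted p under 0.05 (limma, Benjamini-Hochberg over all probe sets) and a fold change of at least 1.5. Over all 22180 genes, 1.43% were called lower and 0.875% higher. The median log2 change of the 31 genes was -0.63, against 0.00 over all genes, and 24 of the 31 changes were negative, against 50.8% of all genes. In 15 of the 31 genes every QT mouse lay below every WT mouse, against 3.02% of all genes. At an unadjusted p under 0.05 there were 19 of the 31 genes, against 20.5% of all genes in either direction. The 14 genes stretch over the pathway, from the citrate carrier Slc25a1 to the last acyltransferase Dgat2, and include Fasn itself, Elovl6 and Scd1. The polyunsaturated desaturases Fads1 and Fads2, the elongases Elovl1 and Elovl5, both lipins and the regulator Srebf1 were not among them.

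**Figure D1:**
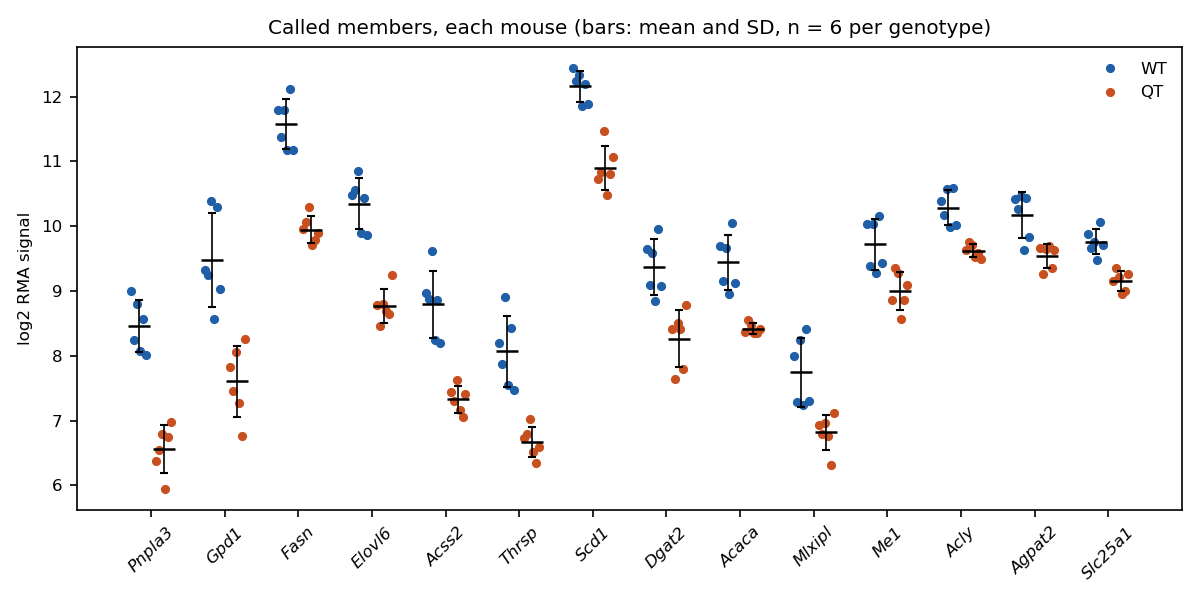
Log2 RMA signal of the 14 genes called lower, on the vertical axis, in each WT (blue) and QT (orange) mouse, with bars for the mean and SD of 6 mice. The genotypes are apart in all but Me1 and Agpat2, and the order of genes follows their change from Pnpla3 (-1.89) to Slc25a1 (-0.60).

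Of the 7 genes that supply acetyl-CoA, malonyl-CoA and NADPH, 5 were lower in QT cartilage. Acss2, which makes acetyl-CoA from acetate, had the largest change of the group. Its log2 value had a lowest, median and highest value of 8.20, 8.87 and 9.61 in WT mice and 7.05, 7.36 and 7.62 in QT mice. The genotypes did not overlap, and the log2 change was -1.46 (SE 0.21, 2.76-fold, adjusted p = 0.00221). Acaca, the acetyl-CoA carboxylase of fatty acid synthesis, had 8.96, 9.41 and 10.05 in WT and 8.35, 8.39 and 8.56 in QT mice. The QT mice were packed within a range of 0.21 whereas WT mice ranged over 1.09, and the change was -1.02 (SE 0.16, adjusted p = 0.00442).

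Acly, which cleaves citrate to acetyl-CoA, had 9.98, 10.28 and 10.59 in WT and 9.49, 9.62 and 9.75 in QT mice. These also did not overlap (change -0.67, SE 0.11, adjusted p = 0.00678). Slc25a1, the carrier that brings citrate out of the mitochondrion, had 9.48, 9.74 and 10.06 in WT and 8.96, 9.19 and 9.35 in QT mice. Its change of -0.60 (SE 0.10, adjusted p = 0.00626) was 1.52-fold, just past the fold threshold, and fell short of it without WT 1 (-0.58), WT 5 (-0.54), QT 4 (-0.56) or QT 5 (-0.57). Me1, the malic enzyme that yields NADPH, had 9.28, 9.74 and 10.15 in WT and 8.57, 8.98 and 9.35 in QT mice, of which 4 lay below the lowest WT mouse. It was called by a narrow margin (change -0.72, SE 0.18, adjusted p = 0.04998) and remained called in 2 of the 12 fits without 1 mouse, those without WT 4 and without QT 2, with changes of -0.81 to -0.63 over the 12.

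Acacb and Aacs missed the call although neither overlapped. Acacb, the carboxylase whose malonyl-CoA restrains fatty acid oxidation, had 6.82, 7.15 and 8.11 in WT and 6.15, 6.67 and 6.74 in QT mice (change -0.75, SE 0.20, adjusted p = 0.0557), and without WT 2 it passed (-0.85, adjusted p = 0.0394). Aacs, which activates the ketone body acetoacetate, had 7.53, 7.61 and 8.05 in WT and 7.24, 7.35 and 7.43 in QT mice (change -0.32, SE 0.09, adjusted p = 0.0687).

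**Figure D2:**
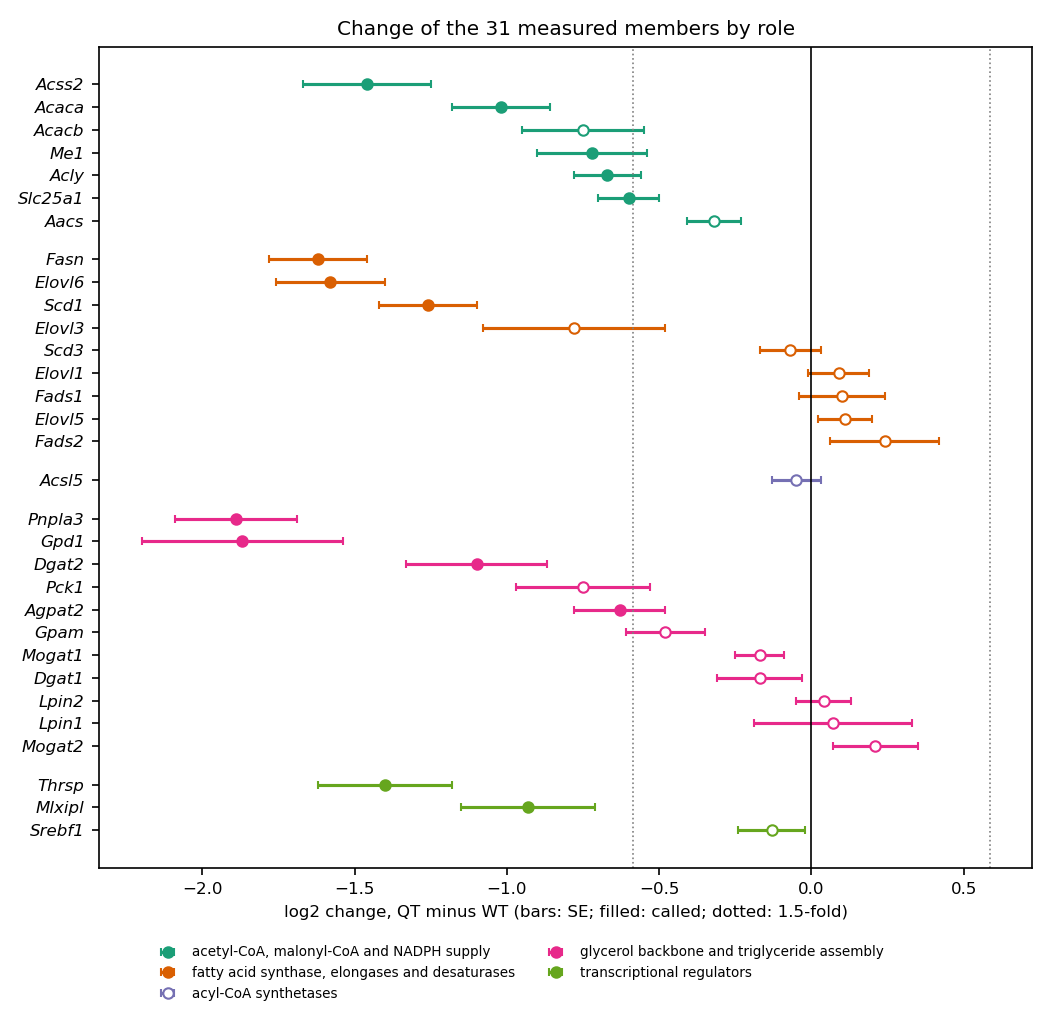
Log2 change from WT to QT (horizontal axis, with SE) of the 31 genes, coloured and grouped by role, with filled points for called genes and dotted lines at a 1.5-fold change. Called genes reach from -1.89 to -0.60 in 4 of the 5 groups, and the highest change is that of Fads2, 0.24.

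Among the synthase, elongases and desaturases, 3 of 9 genes were lower in QT cartilage, those that make palmitate and turn it stepwise into oleate. Fasn, which makes palmitate, had a lowest, median and highest log2 value of 11.18, 11.58 and 12.11 in WT and 9.71, 9.93 and 10.29 in QT mice. The gap between the genotypes was wide, and the mean fell from 11.57 ± 0.38 to 9.95 ± 0.21 (SD, 6 mice each), a log2 change of -1.62 (SE 0.16, 3.08-fold, adjusted p = 0.00027). Elovl6, which lengthens palmitate to stearate, had 9.86, 10.46 and 10.85 in WT and 8.46, 8.74 and 9.24 in QT mice (change -1.58, SE 0.18, 2.98-fold, adjusted p = 0.000439). Scd1, which turns stearate into oleate, had 11.86, 12.22 and 12.44 in WT and 10.48, 10.82 and 11.47 in QT mice (change -1.26, SE 0.16, 2.40-fold, adjusted p = 0.000946). Neither Elovl6 nor Scd1 overlapped between the genotypes.

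The genes of the other chains did not pass the test. Elovl1 and Elovl5, elongases of saturated very long and of polyunsaturated chains, had changes of 0.09 (SE 0.10) and 0.11 (SE 0.09). Fads1 and Fads2, the desaturases of polyunsaturated fatty acids, had changes of 0.10 (SE 0.14) and 0.24 (SE 0.18), and Fads2 ran from 10.13 to 11.28 in WT and from 10.64 to 11.20 in QT mice. Elovl3, known from skin and brown fat, and Scd3, known from sebaceous glands, had means below the median of every array (6.15 to 6.20) in both genotypes and were not shown to be above background. Elovl3 alone of these had high single values, 6.75 in WT 3 and 6.37 in WT 5, against a WT median of 5.16 and QT values of 4.55 to 4.94 (change -0.78, adjusted p = 0.188). Of the acyl-CoA synthetases, which activate fatty acids, only Acsl5 was measured, with 8.93 to 9.20 in WT and 8.91 to 9.25 in QT mice (change -0.05, SE 0.08).

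Of the 11 genes that make the glycerol backbone and assemble triglyceride, 4 were lower in QT cartilage. Pnpla3 and Gpd1 had the largest changes of all 31 genes (-1.89 and -1.87), and their order depended on the mice used. Without WT 4 Gpd1 was ahead (-2.05 against -1.96), and without WT 5 Pnpla3 was (-1.86 against -1.70). Pnpla3 was also ahead when the mean over the probe sets of a gene was used. Pnpla3, a lipid droplet protein that acts on acylglycerols, had a lowest, median and highest log2 value of 8.02, 8.41 and 9.0 in WT and 5.95, 6.65 and 6.98 in QT mice. The highest QT mouse lay more than 1 log2 unit below the lowest WT mouse (change -1.89, SE 0.20, 3.70-fold, adjusted p = 0.00036). Gpd1, which makes glycerol phosphate from a product of glycolysis, had 8.57, 9.29 and 10.39 in WT and 6.77, 7.65 and 8.26 in QT mice. It varied most between mice of 1 genotype among the called genes, with an SD of 0.72 in WT and 0.55 in QT mice, and still did not overlap (change -1.87, SE 0.33, 3.65-fold, adjusted p = 0.00812). These are values of the brighter of its 2 probe sets, and with their mean the change was -1.25 (adjusted p = 0.00982).

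Dgat2, an enzyme of the final step to triglyceride, had 8.84, 9.34 and 9.96 in WT and 7.65, 8.42 and 8.79 in QT mice, with no overlap (change -1.10, SE 0.23, 2.15-fold, adjusted p = 0.0186). Dgat1, which is unrelated in sequence but catalyses the same step, had a change of -0.17 (SE 0.14, adjusted p = 0.573). The difference between the 2 changes was not tested. Agpat2, which makes phosphatidic acid and whose loss causes lipodystrophy, had 9.63, 10.35 and 10.46 in WT and 9.26, 9.64 and 9.70 in QT mice, and 2 QT mice lay below the lowest WT mouse. Its change of -0.63 (SE 0.15, adjusted p = 0.0393) remained called in 2 of the 12 fits without 1 mouse, those without WT 4 and without WT 6 (range of changes -0.74 to -0.58).

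Gpam, the mitochondrial enzyme of the first acylation, had 8.36, 8.58 and 9.20 in WT and 8.0, 8.19 and 8.35 in QT mice, which were just apart (change -0.48, SE 0.13, adjusted p = 0.0546). Pck1, which feeds glycerol phosphate from pyruvate, had 8.60 to 9.71 in WT and 7.76 to 8.72 in QT mice, which overlapped (change -0.75, SE 0.22, adjusted p = 0.0832). The lipins, which take phosphate from phosphatidic acid, had changes of 0.07 (SE 0.26) for Lpin1 and 0.04 (SE 0.09) for Lpin2. Lpin1 was high in QT 3 (10.56, against a QT median of 9.35), and without this mouse its change was -0.15. The monoacylglycerol acyltransferases, best known from the gut, had changes of -0.17 (Mogat1, below the median of every array) and 0.21 (Mogat2).

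Of the 3 regulators, Thrsp and Mlxipl were lower and Srebf1 did not pass the test. Thrsp, or Spot 14, a small protein that promotes lipogenesis, had a lowest, median and highest log2 value of 7.48, 8.04 and 8.90 in WT and 6.35, 6.67 and 7.02 in QT mice (change -1.40, SE 0.22, 2.64-fold, adjusted p = 0.00402). Mlxipl, which codes for ChREBP, had 7.24, 7.65 and 8.42 in WT and 6.32, 6.87 and 7.12 in QT mice. Neither overlapped, and Mlxipl changed by -0.93 (SE 0.22, 1.91-fold, adjusted p = 0.0373), a call that remained in the fits without WT 2, WT 4 or WT 6 and in no other fit without 1 mouse (range of changes -1.03 to -0.80). Srebf1, which codes for SREBP-1, had 8.14, 8.29 and 8.48 in WT and 7.88, 8.13 and 8.60 in QT mice, so that the QT mice lay on both sides of the WT mice (change -0.13, SE 0.11, adjusted p = 0.605). Whether its probes separate the 1a and 1c transcripts was not examined, and the processed protein that binds DNA was not measured.

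The called genes were high or low together in single mice. In WT 4 and WT 6 all 14 lay under the WT mean and in WT 3 and WT 5 none did, and the median distance of the 14 genes from the WT mean ran from -0.47 (WT 4) to 0.33 (WT 5). In every QT mouse all 14 were under the WT mean, by a median of -0.92 (QT 3) to -1.50 (QT 5). That largely follows from the call, which picked genes with lower values in QT mice. WT mice also spread more, with a larger SD in WT than in QT mice for 24 of the 31 genes and 12 of the 14 called ones, against 52% of all genes. This difference in spread was not tested.

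Pearson's correlation of each pair of genes over the 6 mice of a genotype described how far the set varied together apart from genotype. Over the 465 pairs its median was 0.63 in WT mice (quartiles 0.22 and 0.81) and 0.14 in QT mice (quartiles -0.22 and 0.49), against 0.04 and 0.03 over all pairs of the 12727 genes above the array median. In WT mice 60.4% of the pairs reached 0.5, against 20.7% of all pairs, and in QT mice 23.7% did, against 22.1%. Among the 14 called genes the median was 0.84 in WT and 0.49 in QT mice, and among the other 17 genes it was 0.43 and -0.02. The pairs share the same 6 mice and arrays, and the difference between the genotypes was not tested. Leaving out 1 mouse at a time moved the median of the set to between 0.54 and 0.70 in WT and between 0.05 and 0.21 in QT mice.

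**Figure D3:**
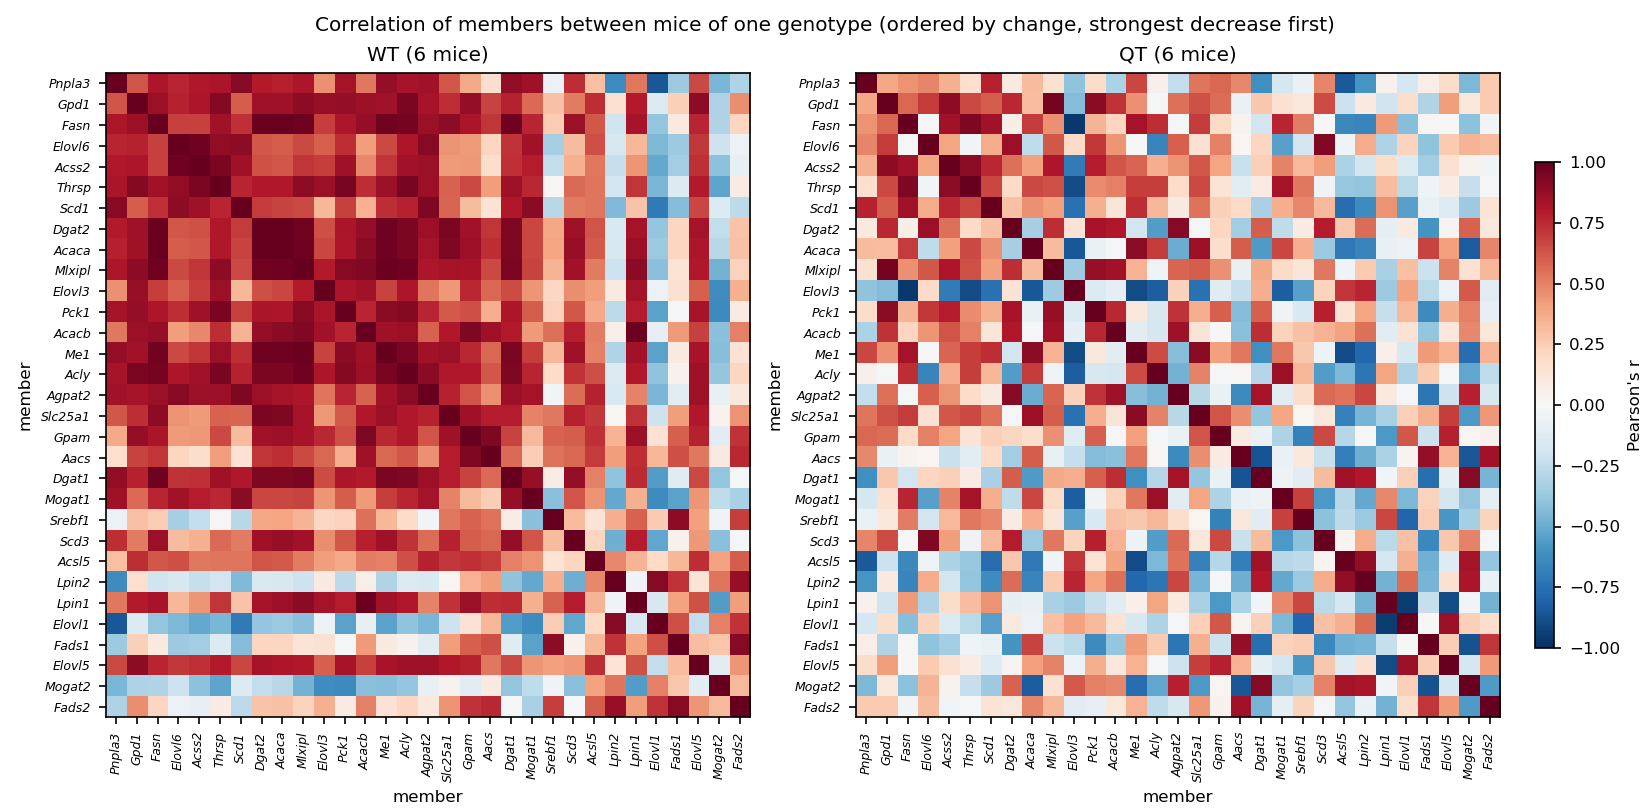
Pearson's r of each pair of the 31 genes over 6 WT mice (left) and 6 QT mice (right), with genes on both axes in the order of their change from WT to QT. The WT block of called genes at the upper left is nearly all positive (median 0.84), and the QT block is mixed (median 0.49).

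With Fasn as the reference gene, 16 of 30 genes had r above 0.8 in WT mice and 4 in QT mice. Acaca, Dgat2, Mlxipl, Dgat1, Acly and Me1 had r of 0.96 to 0.99 in WT mice, whereas in QT mice Me1 had 0.83, Acly 0.74, Acaca 0.70, Dgat2 0.06 and Dgat1 -0.19. Thrsp kept a high r in both (0.84 and 0.93). Fads1, Fads2 and Srebf1 had low r in WT mice (0.10, 0.22 and 0.25). In a limma fit over all probe sets with genotype and the Fasn value as terms, which asks whether a gene followed Fasn among mice of the same genotype, 0 of the 30 genes passed after adjustment, as did 0 of 22179 genes in all. At an unadjusted p under 0.05, 16 of the 30 genes had a positive slope and 0 a negative one, against 2.57% and 1.4% of all genes. The smallest p values were those of Me1 (slope 1.03, SE 0.16, adjusted p = 0.312) and Acaca (slope 0.91, SE 0.14, adjusted p = 0.343). Over fits without 1 mouse the count ran from 13 to 19. The fit takes 1 slope for both genotypes, although the median r with Fasn was 0.81 in WT and 0.21 in QT mice.

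The same was done with Plin1, the coat protein of the fat cell's lipid droplet, and Ckm, the muscle creatine kinase. On Plin1, 17 of the 31 genes had a positive slope at an unadjusted p under 0.05 (2.54% of all genes), led by Mlxipl (slope 0.74, SE 0.16, adjusted p = 0.785), and 0 after adjustment (0.0135% of all genes). Without WT 4 the count was 10, the lowest of the fits without 1 mouse. On Ckm, 2 of the 31 genes had a positive slope at that level, Acacb and Srebf1, against 1.4% of all genes. Conversely, 12 of 14 adipocyte markers followed Fasn at an unadjusted p under 0.05, against 2.57% of all genes. So did 5 of 7 brown adipocyte, 4 of 14 skeletal muscle and 0 of 10 cartilage markers. Of other lipid genes, 7 of 15 of lipolysis and the lipid droplet followed Fasn, and 4 of 8 of NADPH and citrate supply. The counts were 5 of 13 for fatty acid oxidation and 1 of 15 for cholesterol genes.

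Fasn and Plin1 were correlated over the 6 WT mice with r = 0.88 (exact permutation p = 0.0361, adjusted over the 6 relations computed 0.217) and rho = 0.93 (exact permutation p = 0.0222, adjusted 0.133). Without WT 4 and WT 5, the mice farthest from the Fasn median, r was 0.90. Over the 6 QT mice r was 0.52 (exact permutation p = 0.289, adjusted 0.468) and rho 0.43 (exact permutation p = 0.419, adjusted 0.52), and r was 0.54 without QT 3 and QT 4. Fasn and Elovl6, neighbours in the pathway, had r = 0.68 (exact permutation p = 0.172, adjusted 0.468) and rho = 0.46 (exact permutation p = 0.372, adjusted 0.52) in WT mice, and r = 0.78 without WT 4 and WT 5. In QT mice they had r = -0.02 (exact permutation p = 0.969, adjusted 0.969) and rho = 0.14 (exact permutation p = 0.803, adjusted 0.803), and r = -0.30 without QT 3 and QT 4. Fasn and Ckm had r = 0.40 (exact permutation p = 0.411, adjusted 0.493) and rho = 0.41 (exact permutation p = 0.433, adjusted 0.52) in WT mice, and r = -0.07 without WT 4 and WT 5. In QT mice the values were r = 0.50 (exact permutation p = 0.312, adjusted 0.468) and rho = 0.54 (exact permutation p = 0.297, adjusted 0.52), and r = 0.87 without QT 3 and QT 4. No relation passed after adjustment.

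**Figure D4:**
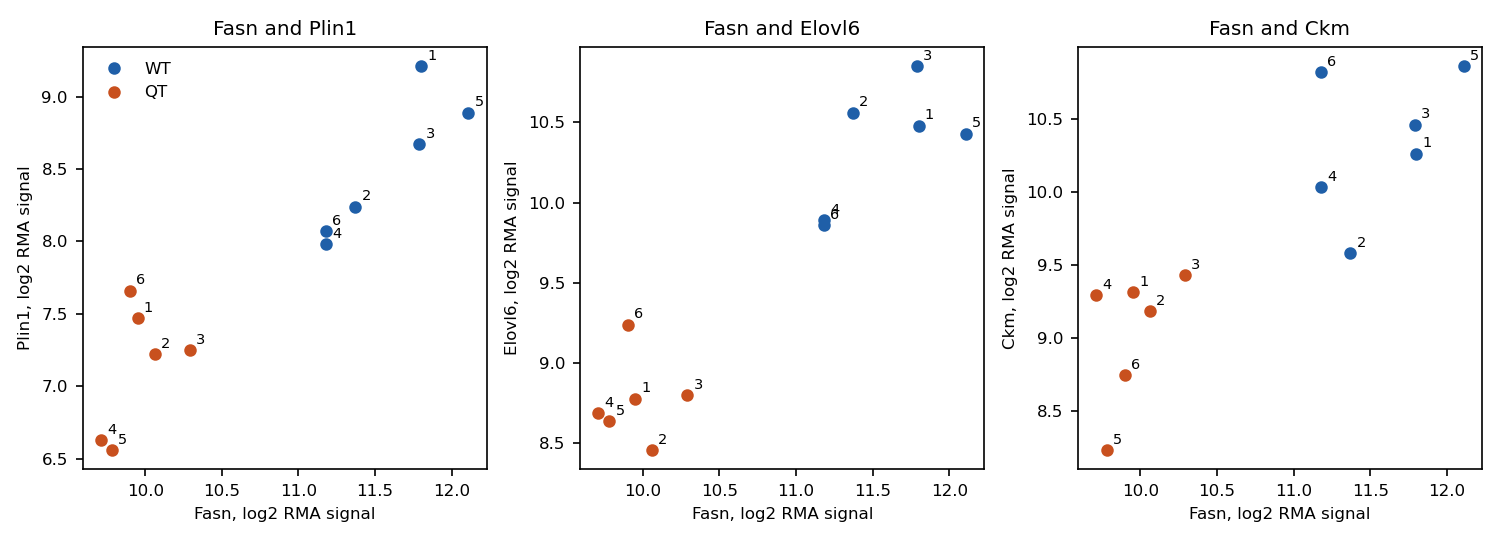
Log2 RMA signal of Fasn (horizontal axes) against Plin1, Elovl6 and Ckm (vertical axes) in each of 6 WT (blue) and 6 QT (orange) mice, numbered by replicate. WT mice with more Fasn signal had more Plin1 signal (r = 0.88), and the genotypes form separate clouds in each panel.

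Markers of other tissues moved with these genes. The called counts below stand against 1.43% of all genes called lower and 0.875% called higher. Of 14 adipocyte markers 9 were lower in QT mice, among them Plin1 (change -1.38, adjusted p = 0.00812) and Adipoq, the fat cell hormone adiponectin (change -0.83, adjusted p = 0.0304). The mean of the 14 markers was 8.48 to 9.32 in WT and 7.80 to 8.27 in QT mice. Of 14 skeletal muscle markers 10 were lower, with means of 9.22 to 10.66 and 8.09 to 9.14. Of 7 brown adipocyte markers only Cox7a1 was lower (change -1.08, adjusted p = 0.0323), and their median change was -0.80. Cidea, Dio2 and Prdm16 were among those not called. A negative change was seen in 6 of the 7, and 5 had an unadjusted p under 0.05 (20.5% of all genes). Ucp1, the uncoupling protein of brown fat, had a change of -1.96 (adjusted p = 0.116) and values of 5.46 to 8.19 in QT mice. Ucp1 was high in WT 3 (10.01) and WT 5 (10.15), the mice with the high Elovl3 values, against 7.15 to 7.78 in the other WT mice. Lipogenic enzymes also mark sebaceous glands and liver. Of 11 keratinocyte and sebaceous gland markers 2 were lower, Sbsn (change -1.58) and Dmkn (-1.05). The list means were 5.92 to 6.20 in WT and 5.81 to 5.97 in QT mice. Dgat2l6, Awat2, Mc5r and Krt79 of that list were not called. The means of these genes, except Mc5r, lay below the median of every array. Of 8 hepatocyte markers 1 was lower, Serpina1c (change -2.69), with list means of 6.08 to 6.52 and 5.71 to 6.43. The part of the skin and liver lists in the result was not tested. Osteoblast markers went the other way, with 2 of 8 higher (Dmp1, change 1.58, and Mepe, change 1.57) and list means of 9.29 to 10.14 in WT and 10.23 to 10.48 in QT mice. Of 8 neutrophil lineage markers 0 were called and 3 had an unadjusted p under 0.05, against 20.5% of all genes (list means 8.39 to 10.20 and 8.49 to 11.19). The part of the osteoblast and neutrophil lists in the result was not tested. In this bulk tissue, fewer cells of a type and less RNA per cell cannot be told apart.

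With the adipocyte marker mean as a further term in the fit, 0 of the 31 genes were called, and the same held with the muscle marker mean. How many of all genes passed in these fits was not counted, so the 0 has no background beside it. Genotype and the marker mean overlap largely (r squared 0.705 for adipocyte and 0.668 for muscle markers), so these fits can hardly tell the pair apart. The genotype term of Fasn was then -0.88 (SE 0.18, adjusted p = 0.146) beside the adipocyte markers and -1.25 (adjusted p = 0.129) beside the muscle markers. Elovl6 had -0.92 (adjusted p = 0.285) and -1.63 (adjusted p = 0.0975), and Pnpla3 had -1.03 (adjusted p = 0.238) and -1.96 (adjusted p = 0.077). Mlxipl, Agpat2 and Me1 had 0.13, 0.00 and 0.07 beside the adipocyte markers, with adjusted p of 0.903, 0.999 and 0.952. Beside the muscle markers these genes had -0.24, -0.43 and -0.33, with adjusted p of 0.876, 0.697 and 0.808. Differences between genes were not tested.

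Sex-linked expression touched the same comparison through WT 5 and WT 6. WT 5 and WT 6 lay on opposite sides of the WT mean, with a median distance of the called genes from the WT mean of 0.33 in WT 5 and -0.37 in WT 6, and WT 4 lay lower still (-0.47). Without both, 9 of the 31 genes were called lower, and Me1, Slc25a1, Agpat2, Dgat2 and Mlxipl were not. The median pair correlation in WT mice was then 0.67. Among WT mice, Fads1 and Fads2 were highest in WT 5 and WT 6 (Fads1 10.28 and 10.32, Fads2 11.28 and 11.08). Without both mice the change of Fads1 was 0.30 (adjusted p = 0.159) and that of Fads2 was 0.48 (adjusted p = 0.112). Neither was called, and an effect of sex was not tested.

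Other lists of lipid genes gave the setting. Among 22 other isoforms of the same enzyme families 0 were lower and 3 were higher in QT mice, against 1.43% and 0.875% of all genes. The genotypes did not overlap in any of the 3. Over all genes, 422 of 22180 lay higher in QT mice without overlap. Acsl4, an acyl-CoA synthetase that prefers arachidonate, had a lowest, median and highest log2 value of 8.04, 8.27 and 8.37 in WT and 8.77, 8.99 and 9.39 in QT mice (change 0.78, SE 0.10, adjusted p = 0.00146). Fads3, a desaturase related to Fads1 and Fads2, had 9.23, 9.60 and 9.69 in WT and 9.96, 10.19 and 10.75 in QT mice (change 0.75, adjusted p = 0.0112). Elovl7 had 5.36, 5.76 and 5.96 in WT mice, below the median of every array on average, and 5.97, 6.39 and 6.73 in QT mice (change 0.63, adjusted p = 0.016). Agpat3 (change -0.30, adjusted p = 0.0234, 1.23-fold) and Gpd2, the mitochondrial partner of Gpd1 (change -0.52, adjusted p = 0.0373, 1.44-fold), also did not overlap, with lower values in QT mice, and missed the fold threshold. They were named after their values were seen. The median change over the 22 genes was 0.06.

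Of 8 further genes of NADPH and citrate supply, 1 was lower (1.43% of all genes), namely Pcx, pyruvate carboxylase, which refills the citrate pool. Its log2 value had 8.34, 8.90 and 9.23 in WT and 7.40, 7.57 and 7.88 in QT mice, with no overlap (change -1.24, SE 0.16, adjusted p = 0.00132). Cholesterol synthesis and uptake, which is run by the related factor SREBP-2, had 0 of 15 genes called and a median change of -0.14. At an unadjusted p under 0.05 there were 4 genes, a share near the 20.5% of all genes. Even so, 13 of the 15 changes were negative, against 50.8% of all genes. The smallest p was that of Nsdhl (change -0.41, adjusted p = 0.039, 1.33-fold). Among 16 regulators of lipid synthesis 0 were called, and Rxra, a partner of nuclear receptors, had the smallest p (change -0.44, adjusted p = 0.0301, 1.36-fold). Named after their values were seen, Srebf2, which codes for SREBP-2, had a change of -0.34 (adjusted p = 0.0377, 1.26-fold, no overlap) and Pparg, the master regulator of fat cells, one of -0.74 (adjusted p = 0.0629, 1.67-fold).

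Of 15 genes of lipolysis and the lipid droplet, 3 were lower, against 1.43% of all genes, and the median change of the 15 was -0.43. The 3 were Plin1, Cidec with -1.08 and Lipe, the hormone-sensitive lipase, with -0.69. These 3 are also adipocyte markers here, as is Fabp4, the only one of 10 genes of fatty acid uptake that was lower (-0.74, adjusted p = 0.0368). Fatty acid oxidation had 0 of 13 genes called and a median of -0.22, with 8 genes at an unadjusted p under 0.05 (20.5% of all genes), and Acadm had the smallest p (change -0.50, adjusted p = 0.0832). Insulin signalling and glucose entry had 0 of 12 genes called and 3 at an unadjusted p under 0.05, again near the 20.5% of all genes. Slc2a4, the insulin-responsive glucose transporter, had the smallest p there (change -0.71, adjusted p = 0.0934).

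**Figure D5:**
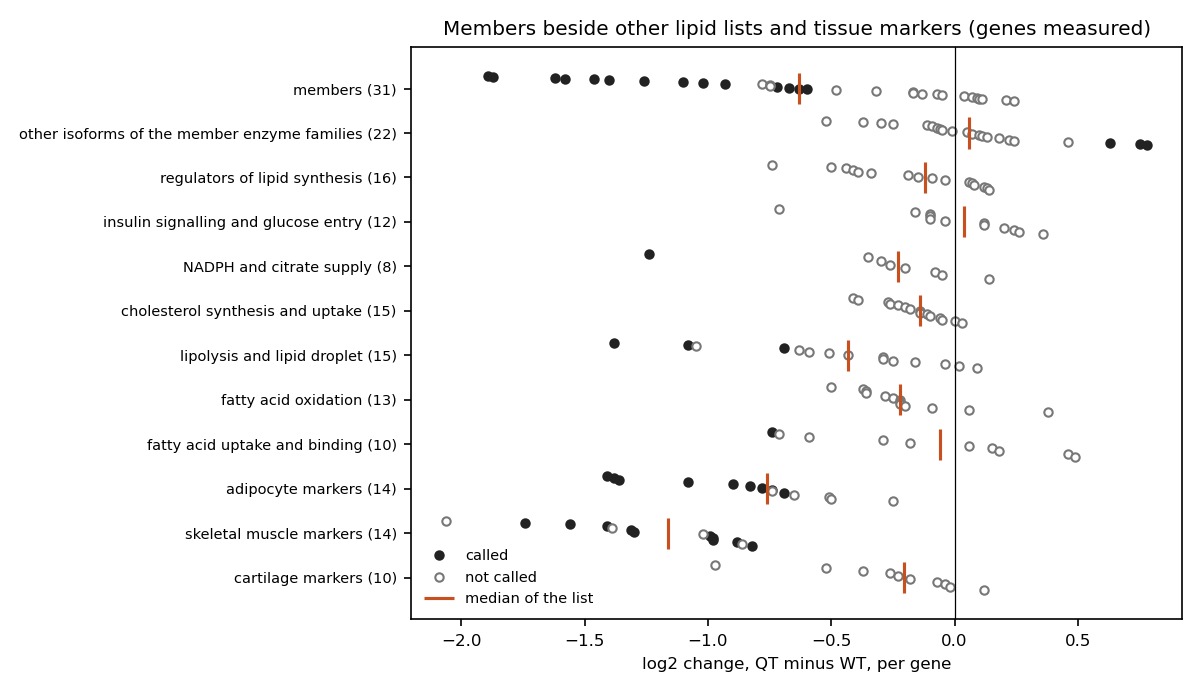
Log2 change from WT to QT (horizontal axis) of each gene in the synthesis set, 8 further lipid lists and 3 marker lists, with filled points for called genes and a red line at the median. The medians run from -1.16 for the muscle markers over -0.76 for the adipocyte markers, -0.63 for the synthesis set and -0.43 for the lipolysis and droplet genes to 0.06 for the other isoforms, and differences between lists were not tested.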

How the data were processed

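RNA from the sternal cartilage of 12 mice, labelled as biological replicates of WT and TIMPless, was hybridised to Affymetrix Mouse Gene ST arrays. The authors made the deposited log2 values by robust multiarray average (RMA), in Partek 6.6 per the submitters' processing notes, which equalises the distribution of all arrays, so a change shared by most genes would not be seen. A genome build was not given in the sources used here. The platform annotation named 1 gene for 23521 of the 41345 probe sets. Precision depends on how many mice were measured, as arrays carry no counts.

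Genotypes were compared over all probe sets with limma 3.58.1 in R 4.3.3 (lmFit and eBayes, 10 residual and 2.93 prior degrees of freedom, Benjamini-Hochberg adjustment), after checks on simulated data. Slopes within genotypes came from the same fit with Fasn, Plin1 or Ckm as a term. The members, lists and tests were chosen with earlier results of these data known. Values per genotype are given for members that were called, did not overlap or led their role group, and of each further list for the 3 called genes with the largest change or the 1 with the smallest p. Alternatives were other variance models, normalizations, filters, thresholds, marker covariates, the replicate number as a block and mice left out. The authors' own table of fold changes was not used.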

Additional observations from a re-analysis of the deposited data

Results flagged for a closer look

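In 1 of the 62 groups of 6 mice (31 genes, 2 genotypes) a single mouse lay far from the rest. Aacs had a log2 value of 8.05 in WT 5, against 7.64 in the next mouse and 7.53 in the lowest, and this gap took 0.79 of the range of the group, over the limit of 0.625 for 6 samples. Chance alone gives such a gap in about 1 group in 20.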

How the results depend on the processing

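The count of 14 lower genes ranged from 10 to 14 with 1 mouse left out, 10 of them without WT 1, WT 5, QT 4 or QT 5. It was 9 without WT 5 and WT 6 together, 0 with the adipocyte marker mean and 0 with the muscle marker mean as covariate (the cause was not tested). Calls over all genes were not counted in the covariate fits. Other variance models, normalizations, thresholds and probe set rules gave 13 to 16, the filter on dim probe sets adding Acacb and Pck1. In no alternative was a gene of the set called higher. Acly, Acss2, Acaca, Fasn, Elovl6, Scd1, Gpd1, Dgat2, Pnpla3 and Thrsp stayed called in all 12 fits without 1 mouse. Same-numbered mice of the 2 genotypes deviated from their group means with correlations of -0.21 to -0.01. These values gave no sign of pairing, but whether such mice shared a batch was not tested. With the replicate number as a block 10 genes were called lower, and Me1, Agpat2, Dgat2 and Mlxipl were not. Changes near 0 turned sign for Lpin2 (range -0.01 to 0.07, negative without WT 1) and Lpin1 (range -0.15 to 0.24, negative without QT 3 and, at -0.01, without QT 5), and the cause was not tested. The unadjusted count of genes following Fasn ran from 13 to 19 and that for Plin1 from 10 to 17 with 1 mouse left out, and the adjusted counts stayed at 0. The median pair correlations with 1 mouse left out, an alternative chosen after seeing the data, were 0.54 to 0.70 in WT and 0.05 to 0.21 in QT mice. Elovl3, Scd3 and Mogat1 lay below the median of every array, where the size of a change is not exact.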
